A study of Homo sapiens with 8 samples.

Results

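The genes of the cytoplasmic ribosomal proteins were taken by symbol from the count tables of both cell lines, as RPL or RPS followed by a digit, or RPLP0, RPLP1, RPLP2 or RPSA, without the RPS6K, RPS19BP and RPS4Y symbols. The rule found 85 of 18638 gene models. They comprised 30 canonical small-subunit genes, 44 canonical large-subunit genes, 8 paralogues (RPL3L, RPL7L1, RPL10L, RPL22L1, RPL26L1, RPL36AL, RPL39L and RPS27L) and 3 readthrough models that join a ribosomal protein gene to its neighbour (RPL17-C18orf32, RPL36A-HNRNPH2 and RPS10-NUDT3). RPL17, RPL36A and RPS10 were present as those joined models alone. The rule did not take in FAU and RACK1 (listed under its older symbol GNB2L1), which encode ribosomal proteins under other symbols and are given beside the members. The rule uses no measured value.

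The cytoplasmic ribosome is built from rRNA and a large set of small proteins, each encoded by its own gene, and these genes are among the most heavily transcribed in growing cells. The small subunit reads the mRNA and the large subunit joins amino acids. Most of the mRNAs begin with a run of pyrimidines at the cap, known as the terminal oligopyrimidine (TOP) motif, through which mTOR signalling and the RNA-binding protein LARP1 control their translation. Apart from the stalk proteins RPLP1 and RPLP2, most ribosomal proteins are present once in each ribosome.

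Nascent RNA had been isolated by factory-seq, in which nuclei are treated with DNase I and lysed natively and RNA held at transcription sites is then released by caspases. The cells were human colorectal cancer lines in culture, with 2 libraries per group. DLD-1 cells of genotype mAID-mClover-POLR2A(Tet-OsTIR1) carry an auxin-inducible degron on RPB1, the catalytic subunit of RNA polymerase II, and were compared untreated (control) and after 500 µM auxin for 14 h following 24 h of doxycycline to induce TIR1. HCT116 cells carried the degron on TOP2A, and TOP2A-mAID control libraries were compared with libraries of genotype TOP2B-/- TOP2A-mAID (TO2B-/--TOP2A-mAID in the labels). For the latter group the titles read as control, and the treatment field and the headings of the count columns as auxin (14 h, for which the protocol gives 500 µM after 24 h of doxycycline), so genotype and treatment cannot be told apart there. The titles name all libraries as asynchronous, and whether untreated cells received doxycycline, whether cells were sorted for G1, whether each line was 1 clone and whether replicates were separate cultures are points that the sources used here do not state. The p-values therefore measure the spread between these libraries, which may be technical.

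Total counts were 62626875 and 36906755 in DLD-1 control cells (replicates 1 and 2, in this order also below), 14183633 and 10739622 after auxin, and 32129400 to 36491540 in HCT116. Read density over 3111 genes that were near silent in controls of the other line, extended to all gene models as a background, amounted to 2.24% and 9.02% of counts in DLD-1 control cells, 39.5% and 59.5% after auxin, and 0.266% to 3.04% in HCT116. POLR2A RNA was not called in DLD-1 (log2 fold change -0.78, edgeR adjusted p 0.077), which does not check depletion of a protein. TOP2B in the group labelled TOP2B-/- was at 135 and 132 CPM against 186 and 192 in the controls (log2 fold change -0.50, edgeR adjusted p 0.027), so reads over the gene remained. Of 6 epithelial markers, KRT8, KRT18, KRT19, CDH1 and EPCAM were read at 61.1 CPM or more in every library and VIL1 at 0.225 to 0.824 CPM in HCT116. After auxin edgeR called 2 of the 6 lower, 1 of 3 blood, 2 of 2 endothelial and 2 of 3 fibroblast markers higher. Over all genes tested, 32.2% were called higher and 35.0% lower. After auxin the median blood marker lay at 0.52 and 0.46 of background density and the median fibroblast marker at 0.61 and 0.81. The lower of the 2 endothelial markers lay at 0.83 and 0.89. The summed endothelial level was 2.45 and 9.43 CPM in control DLD-1 cells and 106.6 and 86.3 after auxin, almost all of it PECAM1, and the part of this in the results on ribosomal protein genes was not tested.

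The starts of these genes are shown because the TOP motif is the sequence feature the family is known for. Each line gives the RefSeq start window on GRCh38.p14, from 20 bases before the annotated start to the first 10 transcribed bases, on the transcribed strand, with the pyrimidine run in capitals. A run was counted where a C followed by at least 4 further C or T bases began within 5 bases of the annotated start, on the transcribed strand alone. The first group holds genes that were high after auxin in DLD-1, the second genes that were not, the third the HCT116 extremes, the fourth paralogues beside a canonical partner, and the last genes outside the family.
RPLP2 (chr11:809947-809976, plus strand): gcctcttgcgtcggcgCCTTCCTTTTCCTC
RPL35 (chr9:124861948-124861977, minus strand): aggtcagccccgcctaCTTCCTCTTTCCCT
RPL38 (chr17:74203658-74203687, plus strand): ccggaaacggaagtctcgttCTTTTTCgtc
RPL26 (chr17:8383184-8383213, minus strand): accggaagcagcgtgtagttCTCTTCCCTT
RPS29 (chr14:49598701-49598730, minus strand): ttttcccccgagcgcgcagctggcagcggt
RPL31 (chr2:101002269-101002298, plus strand): ctcccacaatccttcgcgCTCTTCCTTTCC
RPS12 (chr6:132814549-132814578, plus strand): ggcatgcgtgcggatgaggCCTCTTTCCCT
RPL41 (chr12:56116613-56116642, plus strand): gtagacggaacttcgCCTTTCTCTCggcct
RPSA (chr3:39406700-39406729, plus strand): cgtcatttcctgccgcctgtCTTTTCCgtg
RPS21 (chr20:62387083-62387112, plus strand): tgccgggtgactagctgCTTCCTTTCTCTC
RPS3A (chr4:151099608-151099637, plus strand): tcgcgcgactcccacttccgCCCTTTTggc
RPL22 (chr1:6199586-6199615, minus strand): ctgcgtagttcgctcaCCTCCCTTTCTaac
RPL22L1 (chr3:170870186-170870215, minus strand): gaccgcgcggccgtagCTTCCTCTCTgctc
RPS27 (chr1:153990742-153990771, plus strand): gcaggatttccgctttcgCTCCTTTCCggc
RPS27L (chr15:63157468-63157497, minus strand): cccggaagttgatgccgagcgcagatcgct
EEF2 (chr19:3985454-3985483, minus strand): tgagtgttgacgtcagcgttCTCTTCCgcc
NOP56 (chr20:2652612-2652641, plus strand): cgccggagcgcgctagccgcattgcgagcc

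A run stood at the start of 51 of the 59 canonical genes with an entry (86.4%), against 28.5% of the 13974 tabulated genes with one and 21.1% of all 35116 RefSeq starts. By list, it was found for 19 of 23 small-subunit and 32 of 36 large-subunit genes, 17 of 28 translation factors, 10 of 49 ribosome biogenesis genes, 16 of 67 mitochondrial ribosomal protein genes and 2 of 6 paralogues. Runs were found both in genes called higher after auxin, such as RPLP2, and in genes not called, such as RPL31, and RPS29, which was called higher, has none. In DLD-1, 18 of the 51 canonical genes with a run were called higher (median log2 fold change 0.47) and 6 of the 8 without (median 0.81), a difference that carries no test. The share with a run called higher, 35.3%, was near the 32.2% of all genes tested. In HCT116 the median was -0.22 for both. A match is a description of these letters and not evidence of TOP control.

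Ribosomal protein genes stood near the top in read density per kb in both lines. Levels between genes are given as TMM-scaled CPM (reads per library scaled to a common size) per kb of the gene length counted by the authors. The median canonical gene had 17.7 CPM per kb in DLD-1 controls and 25.8 in HCT116 controls, at percentiles 98.6 and 98.9 of all tested genes. Of the 74 canonical genes, 72 in DLD-1 and 74 in HCT116 lay in the top 10% of tested genes, above 4.09 and 4.87 CPM per kb. The gene models were short, with a median span of 4.48 kb against 23.6 kb over all models.

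Within the family, the level per kb differed by 27.6-fold between the highest and lowest canonical gene in DLD-1 controls and by 17.6-fold in HCT116 controls. RPL8, which sits near the peptidyl transferase centre, had the highest control mean in both lines. It was at 64.6 and 57.6 CPM per kb in the DLD-1 controls and 76.9 and 99.6 in the HCT116 controls. RPL7 followed at 69.1 and 51.0 CPM per kb in DLD-1 and 77.5 and 92.3 in HCT116. RPL8 and RPL7 thus overlapped between libraries in both lines, and their order was not resolved. RPL4 (56.5 CPM per kb, mean of the DLD-1 controls) and RPS2 (53.5) came next in DLD-1, and RPS2 (79.5) and RPL10A (78.0) in HCT116. The lowest were RPL39, with 2.71 and 1.72 CPM per kb in the DLD-1 controls and 4.44 and 5.59 in HCT116, then RPL22 (3.49 and 5.83, control means) and RPS29 (4.12 and 6.69). Genes whose proteins are mostly present once in each ribosome were thus read at unequal density.

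The order of levels was much the same in the 2 lines, with a Spearman correlation over the 74 canonical genes of 0.89 between the control means, against 0.98 between the DLD-1 controls and 0.99 between the HCT116 controls. These are descriptions across genes that share libraries and lengths, and the tables were scaled separately. RPS19 and RPSA, picked after their values were seen, were among the genes with the highest ratio of HCT116 to DLD-1 level, and RPS19 was at 4.95 CPM per kb in DLD-1 and 14.9 in HCT116 controls. Nascent read density per kb is not a measure of mRNA or protein amount.

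**Figure D1:**
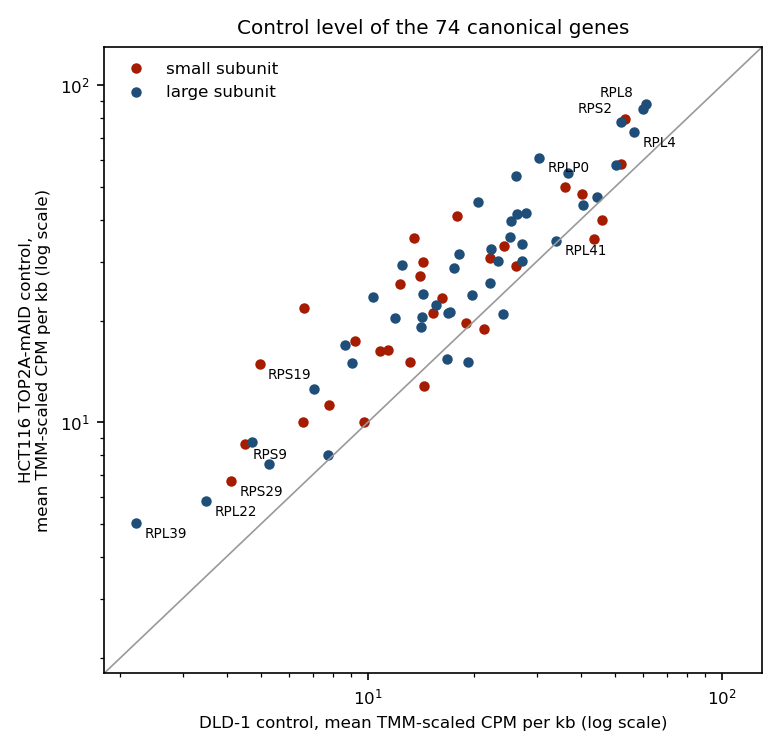
Mean control level of each of the 74 canonical ribosomal protein genes in TMM-scaled CPM per kb, DLD-1 on the x axis and HCT116 on the y axis (both log scales), with the line of equality. Red points are small-subunit and blue points large-subunit genes, and RPL39 lies lowest and RPL8 highest in both lines.

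The DLD-1 comparison asks how nascent RNA differed after auxin in cells with degron-tagged RPB1. All 85 members together took 0.563% and 0.553% of counts in control cells and 1.46% and 1.19% after auxin. After subtraction of background the shares were 0.575% and 0.601% in control cells and 2.30% and 2.64% after auxin. The share was thus higher in both auxin libraries than in both controls on each scale. Background itself made up 0.168% to 2.11% of the reads on members. The libraries are bulk samples, in which fewer cells making a transcript and less RNA per cell cannot be told apart, and every value is relative to the other RNA in its library.

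**Figure D2:**
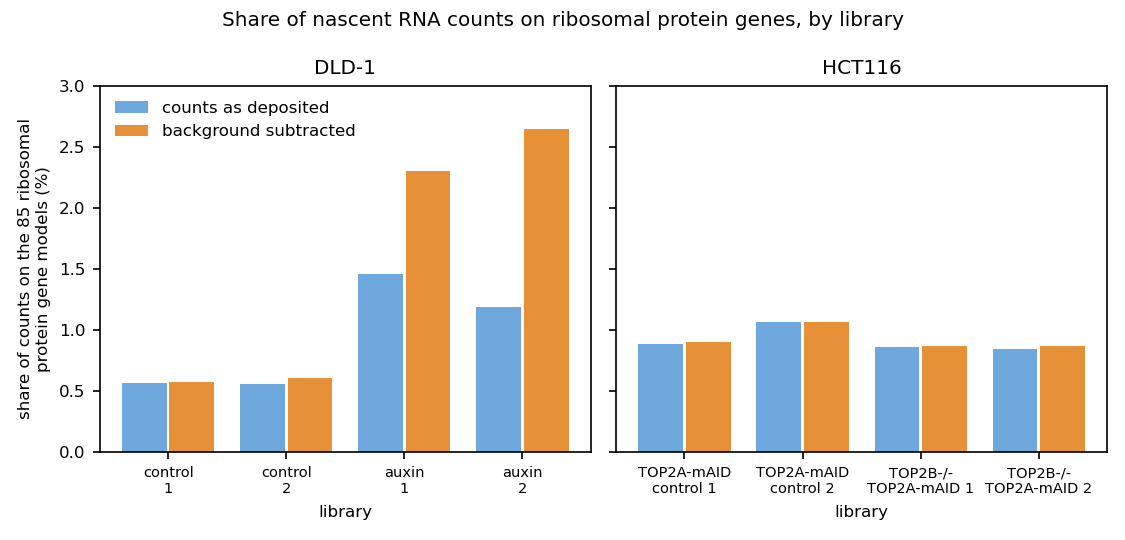
Percent of library counts on the 85 ribosomal protein gene models in each library of DLD-1 (left) and HCT116 (right), for counts as deposited (blue) and after background subtraction (orange). Both DLD-1 auxin libraries, at 1.46% and 1.19% of deposited counts, stand above both controls, and in HCT116 control 2, at 1.06%, stands above the other libraries.

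Gene by gene with TMM scaling, 34 of 84 members tested were called higher after auxin and 1 lower, and 49 were not called. Over all 17625 genes tested, edgeR called 32.2% higher and 35.0% lower. Among the 74 canonical genes, all of which passed the count filter, 31 were higher (41.9%) and 0 lower, with 36 and 0 at an unadjusted p under 0.05 (35.7% and 37.2% of all genes), and DESeq2 called 41 and 0 (33.4% and 33.2% of all genes). Their median log2 fold change was 0.58 (range -0.42 to 1.42), beside -0.06 for all genes, and 68 were above 0. Both auxin libraries lay above both controls in 58 canonical genes and below both in 3, where the shares over all genes were 44.7% and 46.3%. The share called higher was thus near that of all genes, while 0 of 74 called lower stood beside 35.0% of all genes. The SD of fold changes over the canonical genes was 0.37 against 1.85 for all genes. The median of all genes lay at 1.72 and 1.33 times background after auxin, and that of canonical genes at 113 and 60.9 times. SDs were 0.62 for mitochondrial ribosomal protein genes, 0.75 for ribosome biogenesis genes, 1.00 for translation factors and 1.04 for mTOR and TOP regulators.

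The size of this difference depended on scaling and on single libraries. With library totals in place of TMM the canonical median was 1.22 and that of all genes 0.57, and after background subtraction it was 1.88 against -0.16. Relative to all genes tested the family was thus higher by 0.64, 0.65 and 2.04 on the log2 scale with TMM, totals and subtraction. The genes tested numbered 17625 with TMM and totals and 14355 after subtraction, so the 2.04 refers to a smaller set. Auxin 2 was lower than auxin 1 over the family, by a median of 0.39 on the log2 scale of CPM, and the median against either control was 0.64 and 0.84 for auxin 1 and 0.25 and 0.43 for auxin 2. Canonical genes called higher numbered 2 without auxin 1 and 21 without auxin 2, where 0.41% and 1.23% of all genes were called higher. They numbered 12 without control 1 and 12 without control 2, where 35.0% and 38.3% of all genes were. The share called was thus above that of all genes without an auxin library and below it without a control.

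**Figure D3:**
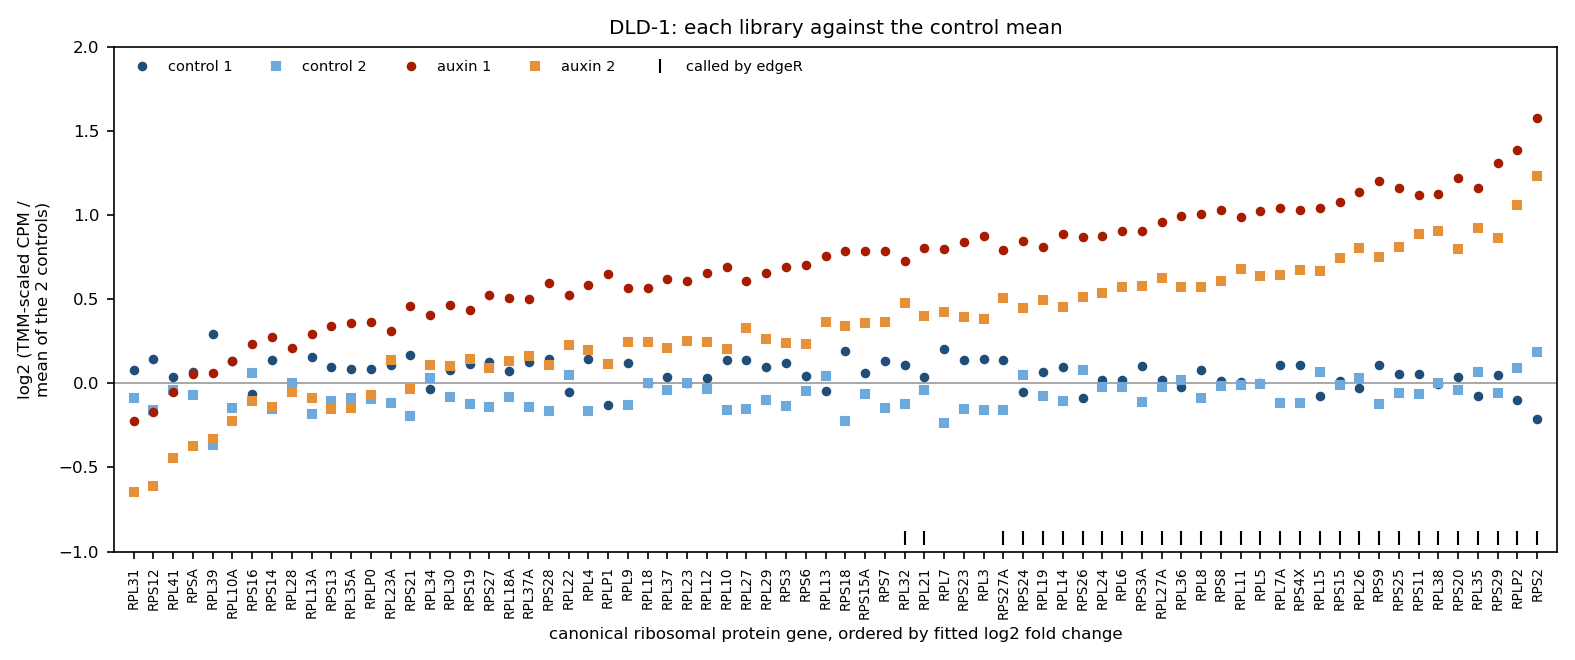
Each of 72 of the 74 canonical ribosomal protein genes in DLD-1, ordered by fitted log2 fold change, with the log2 ratio of each library's TMM-scaled CPM to the mean of the controls on the y axis (circles replicate 1, squares replicate 2, blue control, red and orange auxin). Ticks mark the 30 of these genes called by edgeR, and auxin 2 lies below auxin 1 for every gene.

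Small-subunit genes gave 14 of 30 called higher (46.7%, beside 32.2% of all genes). Their median was 0.61 and their range -0.37 to 1.42. RPS2 (chr16:1962060-1964826), a protein of the mRNA entry region, rose the most among canonical genes. Its CPM was 115 and 152 in control cells and 399 and 314 after auxin, so the groups stood far apart, and its log2 fold change was 1.42 (SE 0.231, edgeR adjusted p 0.0104). RPS29, a zinc-binding protein of the small-subunit head, went from 41.6 and 38.7 to 99.7 and 73.1 CPM (log2 fold change 1.11, SE 0.214, edgeR adjusted p 0.0155). RPS20, also of the head, went from 50.6 and 47.9 to 115 and 85.6 CPM (1.02, SE 0.205, edgeR adjusted p 0.0167). The RPS4X gene, on the X chromosome, was at 182 and 156 CPM and then 345 and 270.1, a rise of 0.86 (SE 0.204, edgeR adjusted p 0.0238). Leaving out auxin 1 ended the call of RPS2 (1.34, edgeR adjusted p 0.060), RPS29 (0.96, 0.060) and RPS20 (0.90, 0.060) without turning their direction.

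The other small-subunit genes set by name were not called by edgeR. RPS6, the target of the S6 kinases, was at 214 and 201 CPM in control cells and 338 and 244 after auxin, with a log2 fold change of 0.49 that edgeR did not call (adjusted p 0.098) and DESeq2 did (0.55, adjusted p 0.0447). RPS3, which also acts in DNA repair, was at 161 and 135 and then 239.6 and 175 CPM (0.49, edgeR adjusted p 0.108). For RPS6 and RPS3 both auxin libraries were above both controls. RPS14 and RPS19, the genes lost in 5q- syndrome and mutated in Diamond-Blackfan anaemia, had log2 fold changes of 0.08 and 0.30 (edgeR adjusted p 0.756 and 0.221). RPS14 overlapped between groups, with 55.9 and 45.9 CPM in control cells and 61.6 and 46.1 after auxin. RPS21 was also not called (0.23, edgeR adjusted p 0.491). At the low end, RPS12 was at 42.9 and 34.8 CPM in control cells and 34.6 and 25.4 after auxin, a value of -0.37 (edgeR adjusted p 0.225), and RPSA, which doubles as the laminin receptor, was at 78.7 and 71.5 and then 78.1 and 57.9 (-0.14, edgeR adjusted p 0.559). Both values turned positive with library totals (0.27 and 0.49) and after background subtraction (0.90 and 1.13), so their direction rests on scaling.

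Large-subunit genes gave 17 of 44 called higher (38.6%, beside 32.2% of all genes). Their median was 0.47 and their range -0.42 to 1.23. The acidic stalk, which recruits translation factors, consists of RPLP0 with RPLP1 and RPLP2 dimers, and 1 of its 3 genes was called. RPLP2 was at 51.6 and 59.0 CPM in control cells and 145 and 115 after auxin, and both auxin values were far above the controls. Its log2 fold change of 1.23 (SE 0.195, edgeR adjusted p 0.00967) was the only one among canonical genes called in all 4 fits that left out 1 library. RPLP1 was at 47.8 and 56.6 CPM in control cells and 82.0 and 56.6 after auxin (0.41, edgeR adjusted p 0.186). RPLP0 was at 146 and 129 and then 177 and 131 CPM, with overlapping groups (0.16, edgeR adjusted p 0.512). Whether the 3 stalk genes differ from each other was not tested.

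RPL5 and RPL11, which with the smallest rRNA of the large subunit form the particle that restrains MDM2, had nearly equal values. RPL5 was at 227 and 225 CPM in control cells and 459 and 352 after auxin, and RPL11 at 127 and 126 and then 251 and 202. Their log2 fold changes were both 0.84 (SE 0.200 and 0.179, edgeR adjusted p 0.0240 and 0.0191), and neither was called without auxin 1 or without either control. RPL26, which also binds MDM2, rose by 0.98 (SE 0.185, edgeR adjusted p 0.0146), from 124 and 129.7 to 279 and 222 CPM. RPL35 near the exit tunnel rose by 1.05 (SE 0.175, edgeR adjusted p 0.0110), from 55.4 and 61.2 to 131 and 110.4 CPM. RPL38, linked to Hox mRNA translation in mice, was close behind at 1.02 (SE 0.167, edgeR adjusted p 0.0105).

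The other large-subunit genes set by name were not called by edgeR. RPL3, of the peptidyl transferase centre, was at 189 and 153 CPM in control cells and 315 and 224 after auxin (0.65, edgeR adjusted p 0.063) and was called higher by DESeq2 (0.71, adjusted p 0.0193). RPL10, which joins the subunit last, had 0.47 (edgeR adjusted p 0.134), RPL4 0.41 (0.160) and RPL22 0.39 (0.114), each with both auxin libraries above both controls. At the low end were RPL31 (-0.42, edgeR adjusted p 0.126), RPL41, the smallest of the proteins (-0.23, 0.357), RPL39 (-0.12, 0.773) and RPL10A (-0.03, 0.891). RPL31 was at 143 and 128 CPM in control cells and 116 and 86.5 after auxin and its groups did not overlap, yet library totals gave 0.22 and background subtraction 0.81, so its direction rests on scaling. RPL41, RPL39 and RPL10A turned positive under the same settings. The RPL31 model spans 17465 bases and overlaps TBC1D8 on the opposite strand, and the part of this in its value was not tested.

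The 27 canonical genes with an annotated snoRNA inside their span, many of which guide rRNA modification, had a median of 0.49 with 11 called higher, and the 47 without had 0.59 with 20. The shares called higher were 40.7% and 42.6%, beside 32.2% of all genes. The Spearman correlation across the 74 genes of log2 fold change with span was 0.05 and with control level per kb 0.22, given as descriptions of genes in the same libraries. The 64 canonical genes with no overlapping gene model had the same median of 0.58, and whether the counting used strand is not stated in those sources. Ribosomal protein genes have many processed pseudogenes, so reads of near-identical copies could have been lost or shared.

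Of 7 paralogues tested, 1 was called higher and 1 lower with TMM scaling (14.3% each, beside 32.2% and 35.0% of all genes). Their median of -0.27 turned to 0.36 with library totals. RPL7L1, a nucleolar relative of RPL7, was the only member called lower, at 56.6 and 44.8 CPM in control cells and 28.6 and 16.7 after auxin (log2 fold change -1.16, SE 0.324, edgeR adjusted p 0.0323). That call ended with library totals (-0.53), after background subtraction (-0.05) and without either auxin library. Its partner RPL7 had 0.62 (edgeR adjusted p 0.069), and the ratio of RPL7 to RPL7L1 per kb was 8.62 and 8.04 in control cells and 25.8 and 34.1 after auxin. RPS27L, the close relative of RPS27, had -0.52 and RPS27 0.33, neither called, with a ratio of RPS27 to RPS27L of 19.9 and 19.3 in control cells and 34.9 and 36.2 after auxin. RPL22L1 (-0.27) and RPL22 (0.39) were not called either, and RPL22 per kb went from 0.709 and 0.693 of RPL22L1 to 1.13 and 1.08. RPL26 stood at 23.6 and 22.8 times RPL26L1 per kb in control cells and at 34.4 and 24.4 times after auxin. In these pairs both auxin libraries lay above both controls, and ratios within a library do not depend on scaling. RPL36AL, which makes nearly the same protein as RPL36A, had -0.46 (edgeR adjusted p 0.090), and RPL26L1 had 0.65 (edgeR adjusted p 0.072, DESeq2 adjusted p 0.0499).

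The remaining paralogues were near or below background density. RPL39L was called higher (2.57, edgeR adjusted p 0.0424) on 18 and 46 reads in control cells and 69 and 96 after auxin, at 0.79, 0.85, 0.76 and 0.93 of the background density of the same libraries. RPL3L, a muscle paralogue, had 8 and 20 reads and then 22 and 41, at 0.65, 0.68, 0.45 and 0.73 of background. Both genes were thus read below background density in every library. The ratio of RPL39 to RPL39L per kb went from 136 and 21.2 in control cells down to 10.7 and 4.69 after auxin, opposite in direction to the pairs above. That of RPL3 to RPL3L went from 1793 and 366 to 385 and 117, with overlapping groups. RPL10L, a testis gene, had at most 3 reads in a library and was not tested. Of the readthrough models, RPS10-NUDT3 (1.28, edgeR adjusted p 0.0257) and RPL36A-HNRNPH2 (1.49, 0.0349) were called higher but lay at 2.22 and 1.44 and at 0.97 and 0.70 of background after auxin. RPL17-C18orf32 was not called (0.11). Of the ribosomal proteins under other symbols, FAU, a ubiquitin-like fusion, rose by 0.66 (edgeR adjusted p 0.044), and RACK1 had 0.23 (0.398) and was not called.

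Other genes of ribosome production and translation had lower medians than the ribosomal protein genes. The lists were chosen for their function and with earlier results of these data known. Of 37 translation factors, 5 were called higher and 18 lower (13.5% and 48.6%, beside 32.2% and 35.0% of all genes). Their median was -0.52. EIF5A, which resolves stalled peptides, rose from 28.4 and 22.7 to 63.6 and 46.7 CPM (1.11, edgeR adjusted p 0.021), and EEF2, the translocase and a TOP gene, from 1033 and 837 to 1979 and 1399 CPM (0.85, edgeR adjusted p 0.045). PABPC4 and EIF1 fell by 2.39 and 2.24 on the log2 scale (edgeR adjusted p 0.004 and 0.006). The list's median was 0.12 with library totals and 0.51 after background subtraction, so its direction depended on scaling.

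Ribosome biogenesis genes gave 0 higher with TMM scaling (also 0 at an unadjusted p under 0.05 and 0 by DESeq2) and 46 lower of 60, with a median of -1.21. GRWD1, a ribosome assembly chaperone, fell from 17.1 and 14.5 to 2.90 and 2.54 CPM (-2.54, edgeR adjusted p 0.006), and RRS1, needed for large-subunit assembly, from 9.67 and 9.20 to 1.80 and 1.53 CPM (-2.50, edgeR adjusted p 0.007). Of 76 mitochondrial ribosomal protein genes, 0 were higher and 39 lower (0 and 41 at an unadjusted p under 0.05, 0 and 38 by DESeq2), with a median of -0.81, led by MRPS26 (-2.24, edgeR adjusted p 0.010) and MRPL44 (-2.15, 0.005). Of 15 mTOR and TOP regulators 11 were lower, among them TSC1 and RHEB (-1.94 and -1.89, edgeR adjusted p 0.004 for both), and DEPTOR was higher (1.81, 0.030). Shares called lower in these lists were 76.7%, 51.3% and 73.3%, where over all genes 32.2% were called higher and 35.0% lower. With library totals the medians of these lists were -0.57, -0.17 and -0.75, and after background subtraction -0.81, -0.09 and -0.87. All of these medians lay beneath those of ribosomal protein genes under the same setting. Calls higher and lower were 3 and 25, 1 and 18, and 3 and 8 with library totals (42.8% and 19.2% of all genes). They were 11 and 31, 15 and 19, and 2 and 7 after subtraction (27.7% and 32.1%), so the absence of higher calls depended on scaling. That difference between lists carries no test, and the lists differ in length and depth, with a median span of 18.6 kb for biogenesis genes, which were read at 4.24 and 2.41 times background after auxin where canonical ribosomal protein genes were at 113 and 60.9 times.

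**Figure D4:**
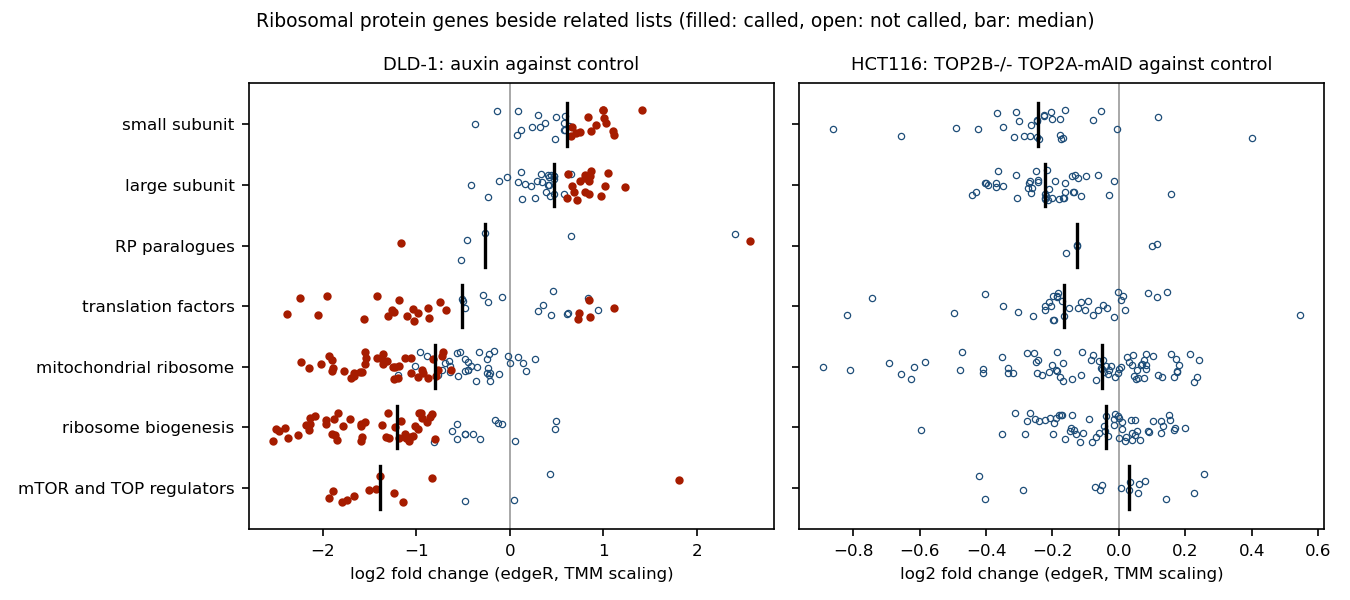
Log2 fold changes of canonical small- and large-subunit genes, their paralogues and related lists in DLD-1 (left, auxin against control) and HCT116 (right, TOP2B-/- TOP2A-mAID against control), 1 point per gene, with filled points called by edgeR and a bar at the median. In DLD-1 the subunit medians are 0.61 and 0.47 and the biogenesis median -1.21 with TMM scaling, and in HCT116 no point is filled.

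The HCT116 comparison asks how the same genes differed in TOP2B-/- TOP2A-mAID cells. Of 82 members tested, edgeR called 0 higher and 0 lower, with 1 higher and 7 lower at an unadjusted p under 0.05. Over all 15273 genes tested, 1.75% were called higher and 1.66% lower, and 11.8% and 11.0% were at an unadjusted p under 0.05. DESeq2 called 1 member higher and 11 lower, beside 6.54% and 8.76% of the genes to which it gave an adjusted p. The canonical median was -0.23 (range -0.86 to 0.40) against 0.03 for all genes, and 71 of 74 were below 0. Both TOP2B-/- libraries lay below both controls in 38 canonical genes and above both in 2, where the share was 27.6% in each direction over all genes. All members took 0.886% and 1.06% of counts in control cells against 0.857% and 0.844% in TOP2B-/- libraries.

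The size of this low median depended on 1 control library. Control 2 was above control 1 in 74 of 74 canonical genes, by a median of 0.33 on the log2 scale of CPM. Against control 1 the medians of the TOP2B-/- libraries were -0.01 and -0.09, and against control 2 they were -0.35 and -0.40. Without control 1, edgeR called 59 canonical genes lower and 1 higher at a median of -0.38, beside 8.32% and 7.68% of all genes. Without control 2 it called 1 lower and 1 higher at a median of -0.12, beside 1.79% and 1.00% of all genes. The difference between the controls was thus as large as that between groups. In the fit without control 2, 66 of 74 canonical genes were below 0 and the median of all genes was -0.02. These genes share the same libraries, so their count is a description and does not replicate a direction. Control 2 also had the least background of the HCT116 libraries (0.266% of counts), and the part of this in the result was not tested.

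**Figure D5:**
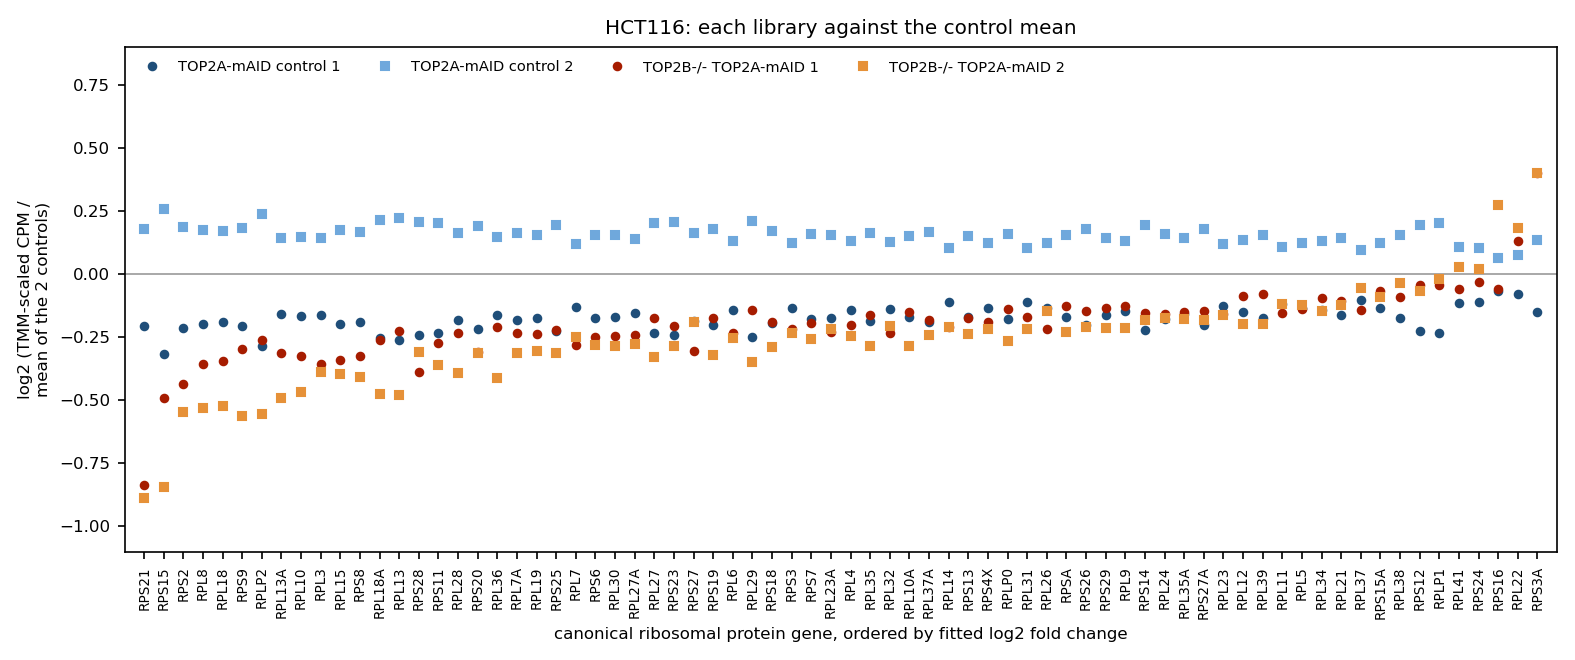
Each of 72 of the 74 canonical genes in HCT116, ordered by fitted log2 fold change, with the log2 ratio of each library's TMM-scaled CPM to the mean of the controls on the y axis (circles replicate 1, squares replicate 2, blue TOP2A-mAID control, red and orange TOP2B-/- TOP2A-mAID). Control 2 lies above control 1 for every gene, both TOP2B-/- libraries lie below both controls for RPS21 and RPS15 at the left end, and both lie above for RPL22 and RPS3A at the right end.

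RPS21 and RPS15 had the lowest values among the genes below both controls, and RPS3A the higher value of the 2 above both. RPS21 (chr20:62387064-62388520), a small protein of the mature small subunit, was at 32.4 and 42.4 CPM in control cells and 20.9 and 20.2 in the TOP2B-/- libraries, which were alike and well below either control. Its log2 fold change of -0.86 (SE 0.155) was the lowest of the family and missed the threshold (edgeR adjusted p 0.078), and it passed in DESeq2 (-0.87, adjusted p 0.000182) and without either control. RPS21 lies on chromosome 20, where 133 of 405 tested genes were called lower and the median log2 fold change was -0.56, and no other member lies there. The part of that chromosome-wide shift in the value of RPS21 was not tested.

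RPS15, a head protein, was at 49.9 and 74.4 CPM in control cells and 44.3 and 34.6 in the TOP2B-/- libraries (-0.66, SE 0.244, edgeR adjusted p 0.227), with a wide spread in both groups. RPS2 had 172 and 226 and then 147 and 136 CPM (-0.49, SE 0.151, edgeR adjusted p 0.174). RPL8 (-0.44), RPL18 (-0.43) and RPS9 (-0.42) followed, each below both controls but not called by edgeR (adjusted p 0.203 to 0.257). DESeq2 called RPS2, RPL8, RPL18 and RPS15 lower (adjusted p 0.00643, 0.0153, 0.0262 and 0.0426) and not RPS9 (0.118). In the other direction RPS3A was at 139 and 169 CPM in control cells and 203 in each TOP2B-/- library, above both controls, with a log2 fold change of 0.40 (SE 0.107, edgeR adjusted p 0.140). RPS3A was the 1 member called higher by DESeq2 (0.39, adjusted p 0.00645), and edgeR called it without either control (0.26 and 0.48). RPL22, at 80.5 and 89.7 and then 93.2 and 96.6 CPM, had 0.16 (edgeR adjusted p 0.289), and RPS16 (0.12), RPS24 (-0.01), RPL41 (-0.01) and RPLP1 (-0.03) overlapped between groups.

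Other members set by name were mostly near the family median in HCT116 and were not called by edgeR. The stalk genes RPLP0 and RPLP2 had -0.20 and -0.40, RPL5, RPL11 and RPL26 had -0.13, -0.14 and -0.18, and RPSA, RPS6, RPS3, RPS14, RPS19 and RPS4X had -0.17 to -0.26. RPL3, RPL4 and RPL10 had -0.37, -0.22 and -0.39, and DESeq2 called RPL3 and RPL10 lower (adjusted p 0.00827 and 0.0176). The paralogues that were tested, RPL7L1, RPL26L1, RPS27L, RPL36AL and RPL22L1, lay from -0.16 to 0.11, and the ratio of RPL22 to RPL22L1 per kb was 0.633 and 0.545 in control cells and 0.717 and 0.733 in the TOP2B-/- libraries. RPL3L, RPL10L and RPL39L had at most 17 reads in a library and were not tested. FAU and RACK1 had -0.35 and -0.25.

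In HCT116 edgeR called 0 genes in each related list, with 2 higher and 8 lower of 37 translation factors, 4 and 6 of 60 biogenesis genes, 3 and 4 of 76 mitochondrial ribosomal protein genes and 2 and 0 of 15 mTOR and TOP regulators at an unadjusted p under 0.05. DESeq2 called 1 higher and 8 lower, 0 and 4, 2 and 2, and 0 and 0 of the same lists. Their medians were -0.17, -0.04, -0.05 and 0.03. Control 2 was above control 1 in 34 of 37 translation factors, 58 of 60 biogenesis genes and 71 of 76 mitochondrial ribosomal protein genes, by medians of 0.19, 0.15 and 0.26, so the difference between the controls was not limited to ribosomal protein genes. No comparison between the cell lines' responses was tested, because treatment, genotype and table differ together.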

How the data were processed

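Factory-seq libraries of 4 groups of 2 were grouped by genotype and treatment labels. The authors deposited raw read counts per RefSeq gene model, in 1 table per cell line, and reads of near-identical copies may be split. The submitters' processing notes name STAR, DESeq2 and the build hg38, but give neither settings nor strand use. Their tables of changed genes (normalized signal, fold changes and p-values) were not used. Totals were 10739622 to 62626875 counts, and canonical members had 122 (RPL39 in DLD-1 auxin 2) to 15891 reads (RPL4 in DLD-1 control 1). Each line was fitted on its own 4 libraries with edgeR 4.0.16 (R 4.3.3; filterByExpr, TMM, quasi-likelihood F test, 2 residual degrees of freedom, two-sided, Benjamini-Hochberg over all tested genes, called at adjusted p under 0.05). SEs were the log2 fold change over the root of F. CPM values are TMM-scaled. Alternatives were DESeq2 1.42.0, RLE scaling, library totals, other filters, thinning, all 8 libraries in 1 fit, subtraction of a background density (median over the 20% of genes per chromosome, of at least 5000 bp, with the lowest density in controls of the other line), a replicate block and leaving out each library. Scripts were tested on simulated data.

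Named genes were the 6 highest and 6 lowest canonical log2 fold changes per line, 19 genes set by name, paralogue pairs, the 4 highest and lowest levels per kb, FAU, RACK1, and per related list the 2 largest called rises and falls. Some genes that this rule names are not reported here. Members and lists were chosen with earlier results of these data known. Of 19 snoRNA host genes listed, only C6orf48 was in the tables (-1.12 in DLD-1, called lower by edgeR, adjusted p 0.042). Deviations of same-numbered libraries from their group means correlated at 0.56 in DLD-1 and -0.82 in HCT116, and the labels do not say that numbers mark a pairing. Start sequences are from RefSeq (GRCh38.p14).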

Additional observations from a re-analysis of the deposited data

How the results depend on the processing

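In DLD-1 the members called higher, 34, were 58 with all 8 libraries in the fit, 77 after background subtraction, 74 with library totals, 62 at a mean CPM of at least 5 and 2 to 21 with 1 library left out (2 without auxin 1). Of all genes, 32.2% were called higher, and 33.6%, 27.7%, 42.8% and 32.4% under those 4 settings. The 1 called lower became 0 under subtraction, totals and the CPM filter, and 0 to 1 with a library left out. The canonical median of 0.58 became 0.78, 1.88, 1.22 and 0.96 under the same 4 settings and was 0.45 to 0.75 with a library left out. In HCT116, calls higher and lower were 1 and 11 in DESeq2, 1 and 3 after subtraction, 0 and 1 at a mean CPM of at least 5 (of all genes 6.54% and 8.76%, 8.5% and 8.36%, and 5.05% and 5.88%), and 0 to 1 and 0 to 60 with a library left out (60 without control 1, beside 8.32% of all genes), and the median was then -0.38 to -0.12. A library alone in its group was taken to spread as the other group does. The replicate block gave 47 higher and 1 lower in DLD-1 (36.6% and 37.0% of all genes) and 0 and 0 in HCT116, and a block with crossed numbers, chosen after seeing the data, gave 0 and 8 there (4.37% and 7.47%). All 31 canonical calls in DLD-1 were made in all 10 settings that kept every library.

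Some uncalled values changed sign. In DLD-1, background subtraction gave POLR2A 0.41, RPL10A 1.28, RPL22L1 0.94, RPL31 0.81, RPL36AL 0.84, RPL39 0.96, RPL41 1.07, RPS12 0.90, RPS27L 0.44 and RPSA 1.13, and library totals gave RPL10A 0.61, RPL22L1 0.36, RPL31 0.22, RPL36AL 0.18, RPL39 0.52, RPL41 0.40, RPS12 0.27, RPS27L 0.11 and RPSA 0.49. The CPM filter gave RPL10A 0.35, RPL22L1 0.12, RPL39 0.26, RPL41 0.15, RPS12 0.00998 and RPSA 0.24. All 8 libraries gave RPL10A 0.16, RPL39 0.060 and RPSA 0.058, thinning RPL10A 0.13 and RPL39 0.24, DESeq2 RPL10A 0.028 and RLE scaling RPL10A 0.058. With a library left out, RPL10A was -0.17 to 0.13, RPL39 -0.41 to 0.24, RPSA -0.28 to 0.053 and RPS14 -0.055 to 0.27. In HCT116, RPL36A-HNRNPH2 was -0.015 in DESeq2, -0.00885 with RLE scaling, -0.022 with all 8 libraries, -0.15 after subtraction, -0.030 with the replicate block, -0.027 with crossed numbers, -0.00175 unfiltered and -0.036 thinned. Subtraction also gave POLR2A 0.030, RPL41 0.032, RPLP1 0.017 and RPS24 0.040, totals POLR2A 0.014, RPL41 0.011 and RPS24 0.020, the CPM filter RPS24 0.0032 and thinning RPL41 0.0068. With a library left out, RPL26L1 was -0.090 to 0.24, RPL36A-HNRNPH2 -0.37 to 0.25, RPL41 -0.13 to 0.031, RPLP1 -0.24 to 0.13, RPS24 -0.11 to 0.037, POLR2A -0.16 to 0.094 and RPS16 -0.059 to 0.23. The cause was not tested.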
